A study of Homo sapiens and Mus musculus with 4 samples.

Results

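The 10 genes described here encode transcription factors that set or maintain T-cell identity: TCF7, LEF1, BCL11B, BCL11A, GATA3, SATB1, TCF3, TCF12, ID3 and RORA. They were taken by symbol, in the human rows for the human lines and in the mouse rows for the mouse lines. This gave 20 of the 60736 genes in the table, 10 of 32738 human genes and 10 of 27998 from mouse. Messenger RNA of 4 established lines was sequenced in bulk, with a stranded library kit and 1 library from each line. The human lines are both T-cell leukaemias, Jurkat of CD4 type by the study's account and TALL104 of CD8 type, kept in interleukin-2. The mouse lines are EL4, derived from a T-cell lymphoma, and IVA12, a B-lineage hybridoma. No treatment or genetic change is given in the labels for any of them, and each line has grown in culture from a tumour or a cell fusion, so none stands for a normal T or B cell.

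Levels are in FPKM, read fragments divided by the length of the gene and by the size of the library, so genes can be compared per length within a library. The library totals that the FPKM divide by lay between 25286728 reads (IVA12) and 34783047 reads (Jurkat), as solved from the steps between the deposited values. They need not be all the reads sequenced. With 1 library per line there was no spread to measure and no test was made. Intervals are 95% intervals for the counting of reads. They cover counting error only, and differences between cultures are not in them. One of the 10 genes at 0 reads is given with the level that 3 reads would have had. In bulk RNA, fewer expressing cells and less RNA per cell cannot be told apart.

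The labelled identities were checked with marker lists. Of 12 T-cell markers, the number at or above 1 FPKM was 12 in both human lines, 11 in EL4 and 3 in IVA12. IVA12 showed 7 of 7 plasma-cell markers at a summed 2851 FPKM, against 81.6 to 133 FPKM in the other lines. Of 8 B-cell markers, 4 reached 1 FPKM in TALL104, 2 did in Jurkat and in IVA12, and 1 did in EL4, so by number a T line held more of them than the B-lineage line. TALL104 had CD79A at 24.6 FPKM, BLK at 6.70 FPKM, CD79B at 4.80 FPKM and EBF1 at 1.73 FPKM. Their summed level was highest in IVA12, at 211 FPKM against 2.31 to 38.2 FPKM elsewhere, from Cd79b at 163 FPKM and Ms4a1 at 46.5 FPKM, while the defining marker Pax5 was at 0.156 FPKM. The myeloid list reached 1 FPKM with 1 gene in every line, in IVA12 with Spi1 at 18.0 FPKM. The part of other cell types in the values below was not tested.

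T-cell identity is laid down in the thymus, where Notch signalling induces TCF7, and TCF7 in turn acts with GATA3 and BCL11B to close off other fates. TCF7 and LEF1 are closely related HMG-box proteins that bind the same DNA motif and use beta-catenin or TLE corepressors as partners. E proteins such as TCF3 and TCF12 bind E-boxes and drive receptor gene rearrangement, and ID proteins such as ID3 pair with them and keep them off DNA. BCL11A, TCF3 and TCF12 also serve B-lineage development, so the 10 genes are not all restricted to T cells.

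Promoter sequence is shown for 4 of the 10 human genes, and motif matches are counted for all 10. Each window is the 250 bases upstream of the most upstream RefSeq start listed on GRCh38.p14, read 5′ to 3′ on the strand of the gene. All 10 human genes matched an entry. TCF7 had 2 starts listed, SATB1 had 4, BCL11A and TCF12 had 5 each and GATA3 had 6. Their other starts were not searched. The build of the promoters differs from the hg19 build of the table, and no coordinate was carried between them. Capitals mark an E-box, CANNTG, or the TCF/LEF motif CTTTGA on either strand. The windows are chr5:134115363-134115612 for TCF7 on the plus strand, and chr4:108166302-108166551 for LEF1, chr14:99272198-99272447 for BCL11B and chr1:23559502-23559751 for ID3 on the minus strand.
TCF7: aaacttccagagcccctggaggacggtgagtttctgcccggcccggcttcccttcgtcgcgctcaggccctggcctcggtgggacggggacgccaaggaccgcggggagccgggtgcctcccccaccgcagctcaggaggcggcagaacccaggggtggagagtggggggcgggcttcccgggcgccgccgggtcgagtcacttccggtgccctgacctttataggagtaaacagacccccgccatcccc
LEF1: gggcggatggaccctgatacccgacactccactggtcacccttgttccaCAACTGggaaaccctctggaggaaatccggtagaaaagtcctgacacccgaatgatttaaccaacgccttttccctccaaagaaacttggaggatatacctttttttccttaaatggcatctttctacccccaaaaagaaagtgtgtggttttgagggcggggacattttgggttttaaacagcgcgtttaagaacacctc
BCL11B: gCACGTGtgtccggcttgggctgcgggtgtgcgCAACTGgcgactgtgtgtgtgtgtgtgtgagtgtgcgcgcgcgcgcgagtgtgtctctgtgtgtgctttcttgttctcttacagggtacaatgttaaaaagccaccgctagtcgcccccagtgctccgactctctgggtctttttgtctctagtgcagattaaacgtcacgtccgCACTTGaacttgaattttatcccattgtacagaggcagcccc
ID3: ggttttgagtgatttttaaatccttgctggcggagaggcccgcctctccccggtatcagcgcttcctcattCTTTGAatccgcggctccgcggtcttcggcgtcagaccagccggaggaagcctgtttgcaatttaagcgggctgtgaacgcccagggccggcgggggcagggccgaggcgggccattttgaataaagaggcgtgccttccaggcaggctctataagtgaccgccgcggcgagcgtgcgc
An E-box was found in 5 of the 10 windows, with 3 matches in BCL11B, 2 in SATB1 and 1 each in LEF1, TCF12 and RORA, and it occurs in 62.2% of 27305 promoter windows of this length. The TCF/LEF motif was found in ID3 alone among the 10, and in 11.4% of all windows. The GATA motif AGATAA was in 0 of the 10 and in 9.40% of all windows. The TCF7 window held none of the 3 motifs. A match describes letters in a window and is not a bound site.

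TCF7 and LEF1 were both present in the human lines, but in different proportions. TCF7 (ENSG00000081059, hg19 chr5:133450372-133487556, plus strand) was at 38.7 FPKM in Jurkat and at 23.4 FPKM in TALL104. Its level was 1.65-fold higher in Jurkat (interval 1.61 to 1.70). LEF1 (ENSG00000138795, hg19 chr4:108968701-109090112, minus strand) was at 141 FPKM in Jurkat and 18.4 FPKM in TALL104, a 7.66-fold difference (interval 7.37 to 7.97). LEF1 was the gene of rank 186 in Jurkat, above 98.3% of the human genes with at least 1 FPKM there, and above 75.9% of such genes in TALL104. The ratio of TCF7 to LEF1 was therefore 0.275 in Jurkat (interval 0.269 to 0.281) and 1.27 in TALL104 (interval 1.22 to 1.33).

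The mouse T line carried TCF7 almost to the exclusion of LEF1. Tcf7 (ENSMUSG00000000782, mm10 chr11:52252371-52283014, minus strand) was at 597 FPKM in EL4, rank 63 among all mouse genes of that library, with 50356 reads. In IVA12 it was at 1.14 FPKM from 76 reads (interval 0.902 to 1.43), so EL4 was 521-fold higher (interval 416 to 662). Lef1 (ENSMUSG00000027985, mm10 chr3:131110471-131224356, plus strand) was at 1.61 FPKM in EL4, where only 4.94% of the mouse genes with at least 1 FPKM were lower. It was at 0 reads in IVA12, against a limit of 0.0135 FPKM, which made EL4 at least 119-fold higher. Human LEF1 had 14 reads in IVA12 and human TCF7 had 10, and their part in the IVA12 values and bounds was not tested. Tcf7 was 371-fold above Lef1 in EL4 (interval 339 to 408), and at least 84.8-fold above it in IVA12. Among all mouse genes above 0 FPKM in EL4, 36.5% were lower than Lef1. LEF1 thus ranked near the top of the Jurkat library, while Lef1 was a gene of low level in EL4.

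**Figure D1:**
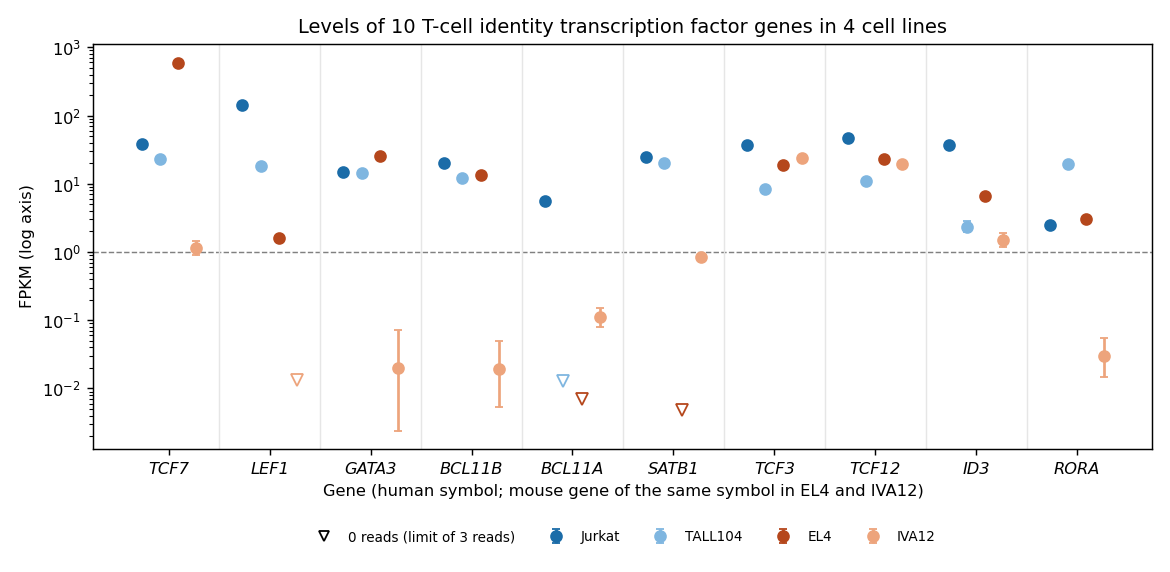
Level of each of the 10 genes in each line in FPKM on a log axis, with points at the level, bars for the 95% counting interval (often smaller than the point) and open triangles at the 3-read limit where a gene had 0 reads; the dashed line is 1 FPKM. Tcf7 in EL4, at 597 FPKM, is the highest point, and Satb1 in EL4, Bcl11a in EL4, BCL11A in TALL104 and Lef1 in IVA12 are the 4 triangles.

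BCL11B and GATA3, the zinc-finger factors of T-lineage commitment, lay between 12.2 and 25.7 FPKM in all 3 T lines and were nearly absent from IVA12. BCL11B (ENSG00000127152, hg19 chr14:99635624-99738534, minus strand) was at 20.2 FPKM in Jurkat and 12.2 FPKM in TALL104, 1.65-fold apart (interval 1.58 to 1.73). Bcl11b (ENSMUSG00000048251, mm10 chr12:107910403-108003602, minus strand) was at 13.3 in EL4 and 0.0195 FPKM in IVA12, the latter from 4 reads with an interval of 0.00531 to 0.0499. The 684-fold ratio of the mouse lines had a wide interval, 267 to 2512. IVA12 also held 9 reads of human BCL11B, more than its 4 own reads, and the part of such reads in this value was not tested.

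GATA3 (ENSG00000107485, hg19 chr10:8087341-8117161, plus strand) was at 15.1 FPKM in Jurkat and 14.4 FPKM in TALL104. These levels did not differ beyond counting error, with a ratio of 1.04 and an interval of 0.970 to 1.12. On the log2(FPKM + 1) scale the difference of GATA3 was 0.06, and it was −0.05 after scaling by the median ratio of expressed genes, so no direction can be given. Gata3 (ENSMUSG00000015619, mm10 chr2:9857078-9890034, minus strand) was at 25.7 FPKM in EL4 and at 0.0199 FPKM in IVA12, from 2 reads with an interval of 0.00241 to 0.0718. EL4 was 1294-fold higher, with a counting interval of 358 to 10692. Human GATA3 had 2 reads in IVA12, as many as Gata3 itself, and their part in the ratio was not tested. BCL11B and GATA3 therefore differed far more between EL4 and IVA12 than between Jurkat and TALL104, with IVA12 at 4 reads of Bcl11b and 2 of Gata3.

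BCL11A, the paralogue of BCL11B used in B-lineage and haematopoietic precursors, was found above 1 FPKM in Jurkat alone. BCL11A (ENSG00000119866, hg19 chr2:60677655-60781602, minus strand) was at 5.52 FPKM in Jurkat, from 1588 reads, and at 0 reads in TALL104, against a limit of 0.0128 FPKM. Jurkat was at least 431-fold higher. Bcl11a (ENSMUSG00000000861, mm10 chr11:24078056-24174123, plus strand) was at 0 reads in EL4, against a limit of 0.00708 FPKM, and at 0.111 FPKM in IVA12, from 37 reads with an interval of 0.0782 to 0.153. The mouse difference, at least 15.7-fold in favour of IVA12, lay at levels so low that it was −0.15 on the log2(FPKM + 1) scale, inside the 1.5-fold threshold. The ratio of BCL11A to BCL11B was 0.273 in Jurkat (interval 0.258 to 0.289) and 5.69 in IVA12 (interval 2.05 to 22.0). In TALL104 BCL11B was at least 957-fold above BCL11A, and in EL4 at least 1884-fold.

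SATB1, a chromatin organiser prominent in thymocytes, was well expressed in both human lines and was not detected in EL4. SATB1 (ENSG00000182568, hg19 chr3:18386869-18487113, minus strand) was at 24.7 FPKM in Jurkat and 20.2 FPKM in TALL104, 1.22-fold apart (interval 1.19 to 1.26). It stood above 81.9% and 78.6% of the human genes with at least 1 FPKM in those libraries. Satb1 (ENSMUSG00000023927, mm10 chr17:51736187-51833290, minus strand) was at 0 reads in EL4, against a limit of 0.00490 FPKM. In IVA12 it was at 0.840 FPKM from 404 reads, at least 171-fold above that limit. Of the T lines, EL4 was the one in which this gene was not detected.

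The E-protein genes TCF3 and TCF12 were above 8 FPKM in all 4 lines, IVA12 included. TCF3 (ENSG00000071564, hg19 chr19:1609290-1652614, minus strand), which encodes E12 and E47, was at 37.5 FPKM in Jurkat and 8.27 FPKM in TALL104, a 4.53-fold difference (interval 4.28 to 4.80). TCF12 (ENSG00000140262, hg19 chr15:57210821-57591479, plus strand), which encodes HEB, was at 46.3 FPKM in Jurkat and 11.1 FPKM in TALL104, a 4.16-fold difference (interval 4.00 to 4.32). Both genes were thus lower in TALL104 by similar factors.

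In mouse, Tcf3 (ENSMUSG00000020167, mm10 chr10:80409514-80433647, minus strand) was at 19.1 in EL4 and 23.7 FPKM in IVA12, so IVA12 was 1.24-fold higher (interval 1.17 to 1.31). Tcf12 (ENSMUSG00000032228, mm10 chr9:71842688-72111871, minus strand) was at 22.7 in EL4 and 19.4 FPKM in IVA12, and EL4 was 1.17-fold higher (interval 1.14 to 1.21). Both mouse differences were beyond counting error and inside the 1.5-fold threshold. TCF3 was below TCF12 in the T lines, with ratios of 0.809 (Jurkat), 0.742 (TALL104) and 0.839 (EL4), and above it in IVA12, at 1.22. In reads not scaled by length the IVA12 ratio turned to 0.318.

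ID3, the inhibitor among the 10 genes, had the largest finite fold difference between the human lines. ID3 (ENSG00000117318, hg19 chr1:23884417-23885992, minus strand) was at 36.9 FPKM in Jurkat and 2.34 FPKM in TALL104, a 15.8-fold difference (interval 13.1 to 19.2). Id3 (ENSMUSG00000007872, mm10 chr4:136143497-136145755, plus strand) was at 6.62 in EL4 and 1.52 FPKM in IVA12, a 4.34-fold difference (interval 3.35 to 5.70). Other members of its family took different places in each line. ID3 made up 67.0% of the summed ID levels in Jurkat, where ID1 was at 15.7 FPKM and ID2 at 2.46 FPKM. ID2 made up 98.0% of the sum in TALL104, at 126 FPKM, and 82.3% in EL4, at 30.8 FPKM. In IVA12 the low sum was shared by Id3, 47.7%, and Id2, 45.9%.

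The E proteins TCF3, TCF12 and TCF4 were then set against the 4 ID genes as sums of FPKM. Jurkat had 84.3 FPKM of E proteins and 55.0 FPKM of ID genes, and TALL104 had 19.4 and 129 FPKM. EL4 had 41.8 FPKM of E proteins and 37.5 FPKM of ID genes, and IVA12 had 54.5 and 3.19 FPKM. TALL104 was the one line with less E protein than ID message, at a ratio of 0.151 (interval 0.145 to 0.157). The ratio was 1.53 in Jurkat (interval 1.48 to 1.59), 1.11 in EL4 (interval 1.06 to 1.17) and 17.1 in IVA12 (interval 14.2 to 20.5). The message ratio does not measure the pairing of the proteins.

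**Figure D2:**
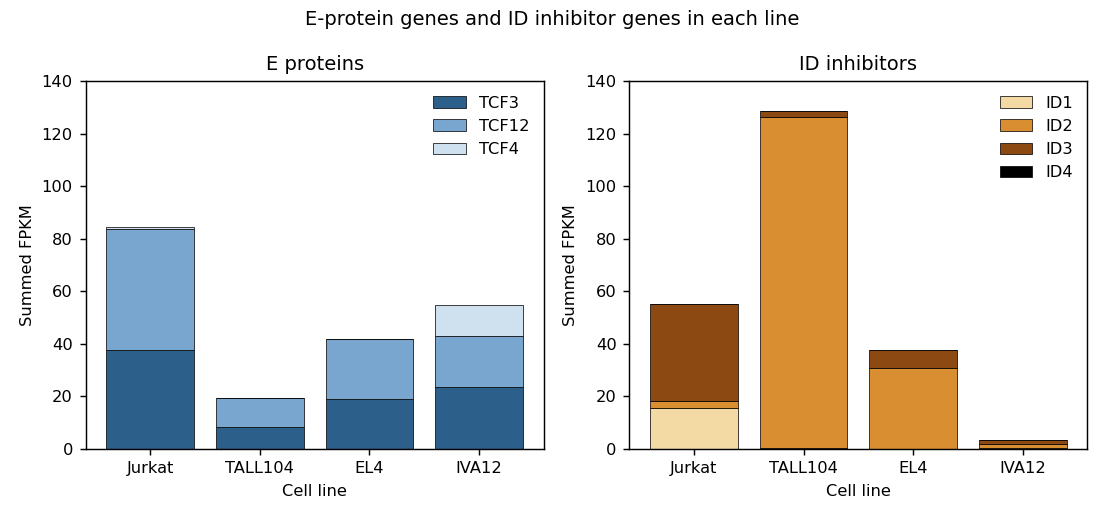
Summed FPKM of the E-protein genes (left) and the ID inhibitor genes (right) in each line, with 1 coloured segment per gene (human symbols; mouse genes in EL4 and IVA12). The ID bar of TALL104, 129 FPKM, is almost all ID2, and the ID bar of IVA12 is 3.19 FPKM.

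RORA, a nuclear receptor of helper and innate-like lymphocytes, was the single member past the threshold in favour of TALL104. RORA (ENSG00000069667, hg19 chr15:60780483-61521501, minus strand) was at 2.48 FPKM in Jurkat and 19.2 FPKM in TALL104, and TALL104 was 7.77-fold higher (interval 7.36 to 8.22). Rora (ENSMUSG00000032238, mm10 chr9:68653786-69388246, plus strand) was at 3.07 in EL4 and 0.0303 FPKM in IVA12, from 10 reads with an interval of 0.0145 to 0.0556. EL4 was 102-fold higher, with an interval of 55.1 to 212. Human RORA had 9 reads in IVA12, and their part in the ratio was not tested. RORA was thus a gene of fairly high rank in TALL104, above 77.2% of the genes with at least 1 FPKM, and stood above 15.5% and 15.0% of such genes in Jurkat and EL4. Among all genes above 0 FPKM the latter shares were 51.2% and 43.3%.

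Some of these genes share exonic bases with neighbours, and the strand setting used for counting is not given in the sources used here. In the GENCODE models used here, TCF7 shares 210 exonic bases with SKP1 on the other strand, and SATB1 shares 211 with TBC1D5. RORA shares 564 with RORA-AS1, and Lef1 shares 1208 with Gm43352. The human models that were counted can differ from these, as the solved length of SATB1 was 13405 bases against 14786 bases of annotated exons. TBC1D5 is on the strand of SATB1, so strand cannot tell their reads in those bases apart. SKP1, RORA-AS1 and Gm43352 are on the opposite strand, where this depends on the strand setting.

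Counted over the 10 genes, a difference was a ratio of FPKM + 1 over 1.5-fold, the threshold the study used on the bulk libraries of the mouse lines, applied here to both pairs. In the human pair 7 members were higher in Jurkat, 1 was higher in TALL104 and 2, GATA3 and SATB1, were within the threshold. Of all human genes 13.8% were higher in Jurkat and 11.4% in TALL104, and of genes that reached 1 FPKM in either line, as all 10 human members had, 34.2% and 28.4%. The median log2 ratio of the 10 members was 1.33, against 0.10 over the genes with at least 1 FPKM in either line. BCL11B, at a log2 ratio of 0.68, was nearest the threshold and came inside it when the values were scaled by the median ratio.

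In the mouse pair 6 members were higher in EL4, 1, Satb1, was higher in IVA12 and 3, Bcl11a, Tcf3 and Tcf12, were within the threshold. Of all mouse genes 9.75% were higher in EL4 and 11.2% in IVA12, and of genes that reached 1 FPKM in either line 23.8% and 26.5%. Satb1 and Bcl11a were under 1 FPKM in both mouse lines, so 8 of the 10 mouse members belonged to the latter set. The median log2 ratio was 1.49 over the 10 mouse members and 1.79 over those 8. It was −0.04 over all mouse genes with at least 1 FPKM in either line. The genes were chosen as T-cell factors and IVA12 is no T line, so the higher count in EL4 is not independent of that choice.

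**Figure D3:**
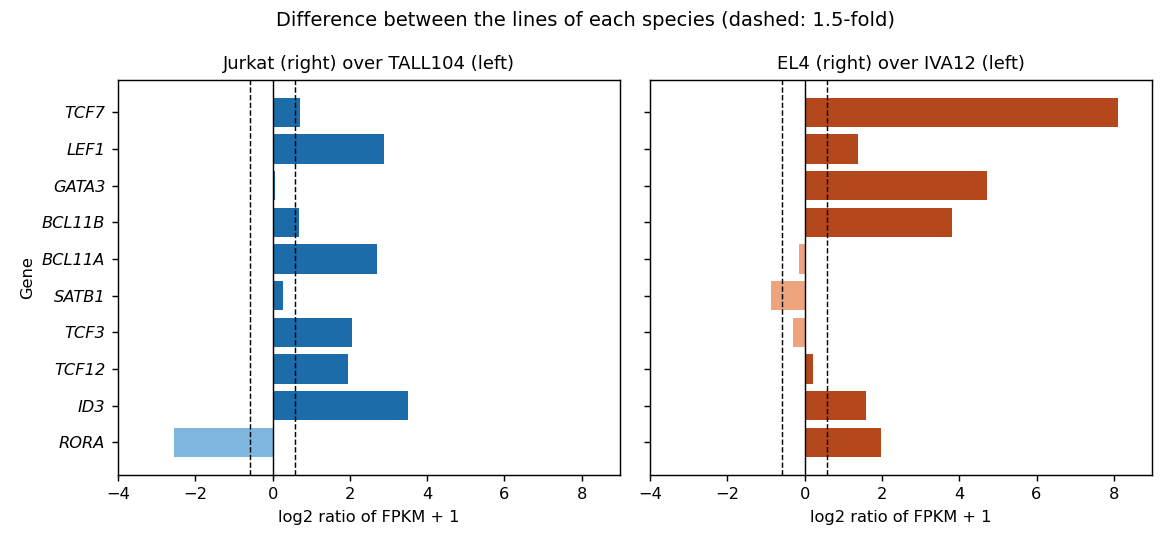
Log2 ratio of FPKM + 1 for each of the 10 genes between Jurkat and TALL104 (left panel) and between EL4 and IVA12 (right panel), with dashed lines at 1.5-fold. Bars to the right are higher in the first line of the pair; RORA in the human pair, at −2.54, and Satb1 in the mouse pair, at −0.88, are the bars past the threshold to the left.

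In total 10 members reached 1 FPKM in Jurkat, 9 did in TALL104, and EL4 and IVA12 had 8 and 4. The 4 in IVA12 were Tcf7, Tcf3, Tcf12 and Id3. Jurkat was the highest of the 4 lines for 7 of the genes, EL4 for TCF7 and GATA3, and TALL104 for RORA. Values of the human and mouse genes come from different gene models, and the order of lines was the same in reads scaled only by library total for 9 of the 10, with RORA as the exception. For RORA the levels of EL4 and Jurkat, 3.07 and 2.48 FPKM, changed places when length was left out. Within the order, the levels of GATA3 in Jurkat and TALL104 had overlapping intervals, and BCL11A was at 0 reads in both TALL104 and EL4.

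The partners through which TCF7 and LEF1 act were counted next, and in the human pair their shares were near those of all expressed genes. The list held 12 human genes for TCF/LEF relatives, beta-catenin, TLE family members and their cofactors. Of these, 4 were higher in Jurkat, 3 were higher in TALL104 and 5 were within the threshold, with a median log2 ratio of 0.20. That is 33.3% and 25.0%, against 34.2% and 28.4% of the genes with at least 1 FPKM in either line. Here and below, the shares of a list include its genes under 1 FPKM, and 10 of these 12 reached it in either line. TCF7L2, a relative of TCF7, was at 4.07 FPKM in Jurkat and 0.105 FPKM in TALL104, and the corepressor TLE2 was at 3.25 and 0.183 FPKM. The remaining relative TCF7L1 had 1 read in Jurkat and 2 reads in TALL104. In mouse 1 of 12 was higher in EL4, 3 were higher in IVA12 and 8 were within, with a median of −0.02. That is 8.33% and 25.0% against 23.8% and 26.5% of expressed genes, and 9 of the 12 reached 1 FPKM in either line. The corepressors Tle2, at 0.0700 in EL4 and 6.76 FPKM in IVA12, and Tle1, at 0.00357 and 4.12 FPKM, were furthest apart. Tcf7l1 was at 0.380 FPKM in EL4 and at 0 reads in IVA12, at least 12.6-fold lower, and Tcf7l2 was at 0 in both.

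A list of 8 genes held TCF4, ID1, ID2 and ID4, and TAL1, LYL1, LMO2 and LDB1, which act with E proteins. In the human pair 2 of the 8, ID1 and TAL1, were higher in Jurkat, 3, ID2, LMO2 and LDB1, were higher in TALL104 and 3 were within. The shares of the whole list were 25.0% and 37.5%, against 34.2% and 28.4% of expressed genes and 13.8% and 11.4% of all human genes. The genes past the threshold were the 5 with at least 1 FPKM in either line. The median log2 ratio was −0.27, and −1.0 over those 5 genes. TAL1, which pairs with E proteins and is a known oncogene of T-cell leukaemia, was at 55.9 FPKM in Jurkat and 0.309 FPKM in TALL104. ID2 was 51.2-fold higher in TALL104 (interval 44.3 to 59.5), the reverse of ID3. TCF4, the E protein of dendritic and B cells, was at 0.469 and 0.00946 FPKM, and ID4 was at 0 reads in Jurkat and 0.0753 FPKM in TALL104.

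In the mouse pair 1 of these 8 genes, Id2, was higher in EL4. Another 3, Tcf4, Lyl1 and Ldb1, were higher in IVA12, and 4 were within. The shares of the whole list were 12.5% and 37.5%, against 23.8% and 26.5% of expressed genes and 9.75% and 11.2% of all mouse genes. The genes past the threshold were the 4 with at least 1 FPKM in either line. The median log2 ratio was −0.12, and −1.79 over those 4 genes. Id2 was 21.1-fold higher in EL4 (interval 15.7 to 28.8). Tcf4 was at 0.00341 in EL4 and 11.5 FPKM in IVA12, where it supplied 21.0% of the E-protein sum. Id1 was at 0.0268 and 0.205 FPKM, and Id4 was at 0 in both.

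GATA relatives were low in the human lines. Of GATA1, GATA2 and the cofactor ZFPM1, 1 was higher in Jurkat, 1 was higher in TALL104 and 1 was within, with a median log2 ratio of 0.05. That is 33.3% and 33.3%, against 34.2% and 28.4% of expressed genes and 13.8% and 11.4% of all human genes. Only 1 of these 3 genes reached 1 FPKM in either line. GATA2 was at 0.593 FPKM in Jurkat and 0.0158 FPKM in TALL104, ZFPM1 was at 0.668 and 1.55 FPKM, and GATA1 had 1 and 0 reads. In mouse 1 of 3 was higher in EL4, 0 were higher in IVA12 and 2 were within, with a median of 0.03. That is 33.3% and 0%, against 23.8% and 26.5% of expressed genes and 9.75% and 11.2% of all mouse genes. Zfpm1, which encodes the GATA cofactor FOG1, was at 49.7 in EL4 and 1.38 FPKM in IVA12, while Gata1 was at 0.0383 and 0.0162 FPKM and Gata2 at 0 in both.

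BCL11B and BCL11A recruit the NuRD complex, a chromatin remodeller with deacetylase activity. In the human pair 7 of 13 NuRD genes were higher in Jurkat, 1 was higher in TALL104 and 5 were within, with a median log2 ratio of 0.76. That is 53.8% and 7.69%, against 34.2% and 28.4% of expressed genes. The histone-binding subunit RBBP4 was at 81.6 FPKM in Jurkat and 26.7 FPKM in TALL104, and the deacetylase HDAC2 was at 20.9 and 7.62 FPKM. In mouse 3 of 13 were higher in EL4, 1 was higher in IVA12 and 9 were within, with a median of 0.18, or 23.1% and 7.69% against 23.8% and 26.5%. The remodeller Chd3 was at 34.1 in EL4 and 2.55 FPKM in IVA12, and Rbbp7 was at 304 and 67.6 FPKM.

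A list of 5 nuclear receptor and chromatin genes related to RORA and SATB1 was also counted. In the human pair 2 were higher in Jurkat, 1 was higher in TALL104 and 2 were within, with a median log2 ratio of 0.48. That is 40.0% and 20.0% against 34.2% and 28.4% of expressed genes, and 4 of the 5 reached 1 FPKM in either line. NR1D2, a repressor at ROR response elements, was at 6.52 and 12.8 FPKM in Jurkat and TALL104. RORB was at 0.743 FPKM in Jurkat and at 0 reads in TALL104, at least 67.4-fold lower. In mouse 0 of 5 were higher in EL4, 1 was higher in IVA12 and 4 were within, with a median of −0.07. That is 0% and 20.0% against 23.8% and 26.5% of expressed genes, and 3 of the 5 reached 1 FPKM in either line. The gene higher in IVA12 was Nr1d1, at 1.65 in EL4 and 3.29 FPKM in IVA12, and Nr1d2 had a log2 ratio of −0.10. Rorb was at 0 in both mouse lines.

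Among 11 other T-lineage regulators, 4 were higher in Jurkat, 2 were higher in TALL104 and 5 were within, with a median log2 ratio of 0.02, or 36.4% and 18.2% against 34.2% and 28.4% of expressed genes. MYB, a progenitor factor, was at 88.8 FPKM in Jurkat and 0.508 FPKM in TALL104, and ZBTB7B, which encodes the CD4-lineage factor ThPOK, was at 0.210 and 10.2 FPKM. In mouse 7 were higher in EL4, 3 were higher in IVA12 and 1 was within, with a median of 1.07, or 63.6% and 27.3% against 23.8% and 26.5%. This list too was chosen for the T lineage, so its higher count in EL4 is not independent of that choice. Tox was at 23.1 in EL4 and 0.0156 FPKM in IVA12, and Notch1, the receptor upstream of Tcf7, was at 0.0131 in EL4 and 13.0 FPKM in IVA12. EL4 thus combined a high level of Tcf7 with very few Notch1 reads.

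**Figure D4:**
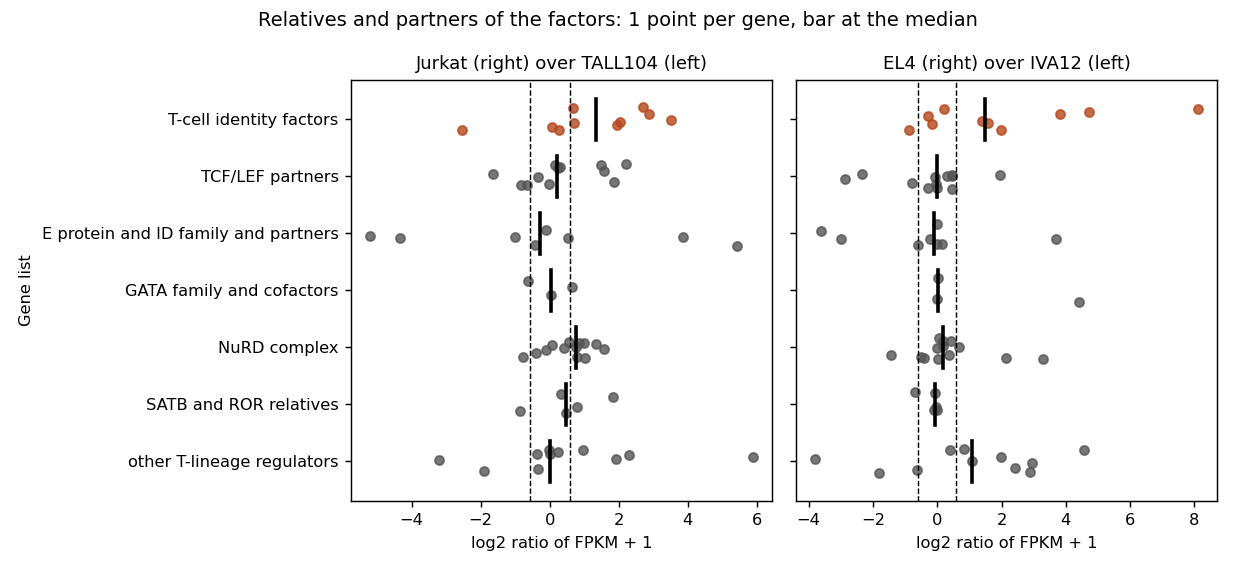
Log2 ratio of FPKM + 1 for the genes of each list, 1 point per gene and a bar at the list median, between Jurkat and TALL104 (left panel) and between EL4 and IVA12 (right panel), with dashed lines at 1.5-fold; vertical scatter only separates points. The 10 factors have medians of 1.33 and 1.49, and the TCF/LEF partners have medians of 0.20 and −0.02.

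Genes with a like pattern over the 4 libraries were sought among 10555 genes whose symbol is shared by both species and that reached 1 FPKM in any library. Likeness was the distance of log2(FPKM + 1) over the 4 libraries, and with so few points it is a description. Nearest to TCF7 were PTPN6 at a distance of 2.26, CD3G at 2.37 and AP3S1 at 2.74. Nearest to LEF1 were GPR174 at 1.61, CCDC167 at 1.65 and VAT1 at 1.79. Distances were smaller for BCL11B, with USP11 at 0.35, GYPC at 0.50 and CD84 at 0.54. GATA3 had CAMK4 at 0.21, PRKCB at 0.22 and EIF4G3 at 0.54. The distance depends on level and mixes human and mouse gene models. Tcf7 was at rank 63 in EL4 and LEF1 at rank 186 in Jurkat, where few genes are higher. The distances therefore do not show that the patterns of TCF7 and LEF1 were more unusual.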

How the data were processed

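The authors deposited 1 table of FPKM for 4 libraries. Per the study's methods, paired reads were aligned to a joint hg19 and mm10 reference and counted per gene. The submitters' processing notes list STAR 2.5.1b, featureCounts 1.6.3 and Cell Ranger 1.2.0. In the study's methods the last of these is the name of the joint reference. The gene lengths, the strand setting and the rule for multi-mapping reads are not given in the sources used here. All columns were mapped, with 0 left over.

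Here each library total and the reads per gene were solved from the FPKM steps, trying lengths to 300000 bases with a tolerance of 1e-12 on whole reads. For Lef1 and Id3 the annotated exons were a whole multiple of the solved length, and their reads were multiplied by it. The solved length differed from the annotated exons for 8 of the 10 human members and 0 of the 10 mouse members. For human these exons are of GENCODE release 44, while the study names an Ensembl release for its reference. The part of that difference in the unequal lengths was not tested. If a common factor in their reads was missed, their read counts, intervals and ratios in reads would change, and their FPKM would not. The method was tested on simulated data for the totals, the fold call and the proportion of reads to length. That test cannot reveal a missed common factor, because the proportion stays the same. Genes were placed with GENCODE human release 44 on GRCh37 and mouse release M21 on GRCm38.

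Lines were compared within a species as ratios of FPKM + 1, counted above 1.5-fold with no filter on low values. Levels have exact Poisson intervals and ratios of 1 gene exact binomial intervals at 95%, ratios of summed genes have approximate intervals, and 0 reads were replaced by 3 for bounds. The genes named are the members, their family relatives, the 2 genes of each list with the largest log2 ratio in each pair, and the 3 genes nearest in pattern to TCF7, LEF1, BCL11B and GATA3. Values of a few genes that this rule names are not reported here. Members, lists and thresholds were chosen with earlier results of these data known. The alternatives were other pseudocounts, scalings, thresholds and filters, ratios in reads, and ranks over all genes above 0. The order of lines in reads scaled by library total and the intervals of read ratios were added after seeing the data. Python 3.11.15, NumPy 2.4.6, pandas 2.3.3, SciPy 1.17.1 and matplotlib 3.10.9 were used.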

Additional observations from a re-analysis of the deposited data

Results flagged for a closer look

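Reads of the genes of the other species were looked at in each library. Whether they came from the line itself, by alignment of its reads to the like gene of the other species, was not tested. There was no control library. Above the 3 reads that a count of 0 allows, human TCF7 had 46 reads in EL4 and 10 in IVA12, and human TCF12 had 6 in EL4 and 13 in IVA12. In IVA12 there were also 14 reads of LEF1, 9 of BCL11B, 18 of SATB1, 4 of TCF3, 4 of ID3 and 9 of RORA. Mouse Tcf7 had 10 reads in Jurkat and 14 in TALL104, and mouse Tcf12 had 7 and 6. Other-species reads made up 0.212% of the recovered reads in IVA12, against 0.0376% to 0.0497% in the other lines. Their part in the low levels of IVA12 was not tested.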

How the results depend on the processing

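No paired analysis was possible because each line has 1 library and no replicate number, and for the same reason no replicate could be left out. Differing members fell from 8 to 5 in the human pair and from 7 to 3 in the mouse pair at 4-fold. Differing genes of the wider lists went from 31 to 19 at 2-fold and 8 at 4-fold in the human pair, and from 24 to 13 at 4-fold in the mouse pair. Scaling by the median ratio left 7 human members, a pseudocount of 0.1 FPKM gave 8 mouse members, Bcl11a included, and a minimum of 1 FPKM gave 6, without Satb1. In reads not scaled by length, TCF7 to LEF1 was 0.516 in Jurkat, 2.39 in TALL104 and 111 in EL4. TCF3 to TCF12 was 0.519 (Jurkat), 0.476 (TALL104), 0.218 (EL4) and 0.318 in IVA12, where it passed from above 1 to below 1. E proteins to ID genes was 7.42 (Jurkat), 0.550 (TALL104), 8.41 (EL4) and 147 (IVA12). These ratios moved because the genes differ in length. No difference past the threshold changed direction. Ranks among all genes above 0 were higher than among genes with at least 1 FPKM, by most for low genes such as Lef1 in EL4, 36.5% against 4.94%. Depth limits the values of IVA12 that rest on 2 to 10 reads, Gata3, Bcl11b and Rora, and human reads of the same genes, 2, 9 and 9, were as many or nearly so.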

Other observations

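The level of TCF7 depended on the gene model. Per length, Tcf7 in EL4 was 15.4-fold above TCF7 in Jurkat, but in reads scaled only by library total it was 4.02-fold above it, with a human gene model of 10063 bases and a mouse one of 2625 bases. The TAL1 partners LMO2 and LDB1 and the TAL1 paralogue LYL1 were named after their values were seen. LMO2 was at 0.00925 FPKM in Jurkat and 19.5 FPKM in TALL104, and Lmo2 at 0.388 in EL4 and 0.256 FPKM in IVA12. LDB1 was at 23.9 and 48.9 FPKM in the human lines, and Ldb1 at 30.2 and 46.1 FPKM in the mouse lines. LYL1 was at 0.0277 and 0.396 FPKM in the human lines, within the threshold, and Lyl1 at 3.75 in EL4 and 36.7 FPKM in IVA12. The mouse TLE-family gene Aes, chosen in the same way, was at 223 in EL4 and 56.5 FPKM in IVA12. Its difference ran in the direction opposite to those of Tle1 and Tle2.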
